A study of Mus musculus with 12 samples.

Results

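The comparison described here set rectum of mice with Cdx2-driven deletion of Apc against control rectum, across the 14882 autosomal genes that reached 1 FPKM (fragments scaled to transcript length and to library size) in at least 2 of the 6 libraries, out of 27785 genes in the table. The series holds 12 RNA sequencing libraries of mouse rectum in 4 groups, and 6 of these libraries enter the comparison. The Cdx2-Apc group (3 libraries) came from mice with a tamoxifen-inducible Cre recombinase, CreER, under the Cdx2 driver and with floxed Apc alleles, given tamoxifen by intraperitoneal injection at 25 mg/kg on 5 consecutive days. The control group (3 libraries) is titled WT, but its genotype field names CDX2creER and APC flox with WT in brackets, so the labels do not settle which alleles these mice carried. The tamoxifen protocol stands on the control samples too, while their own treatment field is missing, so the labels do not settle whether they were injected. The 2 other groups carried floxed Apc with Lgr5-driven CreER (Lgr5-Apc, 4 libraries) or with both drivers (Lgr5-Cdx2-Apc, 2 libraries). Age, sex, strain and the time from tamoxifen to collection are not given in the labels. Each library is whole rectal tissue, so fewer cells of a type and less RNA per cell cannot be told apart.

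Apc is a scaffold of the complex that marks β-catenin for destruction. Without it, β-catenin accumulates, enters the nucleus and switches on Wnt target genes through TCF and LEF factors, and loss of APC is the usual first step of colorectal adenoma. Cdx2 is a homeobox transcription factor of the intestinal epithelium, and a Cdx2 driver directs Cre to the epithelium of the hindgut rather than to stem cells alone as Lgr5 does. Rectal tissue holds columnar colonocytes and goblet cells over a smooth muscle wall, and at the anal margin it joins a squamous epithelium of keratin-rich cells.

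The 2 groups differed in the sex-linked RNAs they held. Xist, the RNA of the inactive X chromosome in females, was 1.12, 0.702 and 0.893 FPKM in the Cdx2-Apc libraries, against 154, 98.1 and 107 FPKM in the control libraries, and it passed the test (limma, adjusted p = 0.000212). Eif2s3y, a Y-linked gene, was 24.7, 25.1 and 28.5 FPKM in the Cdx2-Apc libraries, against 3.06, 0.198 and 0.130 FPKM in the control libraries. Ddx3y, Kdm5d and Uty showed the same split, with the highest control value in replicate 1 each time, at 1.81 FPKM for Ddx3y. Sex as read from these RNAs and genotype cannot be told apart in any difference below, and control replicate 1 also held some Y-linked RNA.

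Tissue content varied within groups as well. The mean log2(FPKM + 1) of 23 tested squamous epithelium genes, such as Krt5 and Krt13, was 1.45, 1.72 and 4.87 in the Cdx2-Apc libraries, against 7.02, 2.66 and 2.46 in the control libraries. Control replicate 1 and, less so, Cdx2-Apc replicate 3 thus held the most squamous RNA. The 22 smooth muscle genes averaged 6.82, 5.43 and 5.62 on the same scale in the Cdx2-Apc libraries, against 6.70, 6.39 and 6.64 in the control libraries, so Cdx2-Apc replicates 2 and 3 stood below the other 4 libraries. The 12 columnar epithelium genes, such as Epcam and Krt8, averaged 8.33, 8.61 and 8.68 in the Cdx2-Apc libraries and 8.05, 8.17 and 8.61 in the control libraries, so columnar RNA was abundant in all 6. The first principal component of the 6 libraries, with 40.5% of the variance, set control replicate 1, at 71.5, apart from the other 5 libraries, which lay between -31.3 and 11. None of 23 T and NK cell genes reached the expression filter.

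Only 1 autosomal gene passed the test. Of the 14882 genes, 0 were called higher in Cdx2-Apc rectum (0% of those tested) and 1 was called lower (0.00672%), by limma on log2(FPKM + 1) at a Benjamini-Hochberg adjusted p below 0.05. At an unadjusted p below 0.05, 381 genes were higher (2.56%) and 184 lower (1.24%). In 947 genes (6.36%) all 3 Cdx2-Apc libraries lay above all 3 control libraries, and in 391 genes (2.63%) all lay below. That split moved to 747 above and 584 below after median-of-ratios scaling of the libraries. The median log2 difference over all tested genes, Cdx2-Apc minus control, was 0.05, with quartiles of -0.09 and 0.18, and 260 genes had an absolute difference of at least 1. The difference was positive in 8886 genes and negative in 5996, the background for the counts of signs in the gene lists below. After median-of-ratios scaling the median was 0.000159. An exact permutation test of 3 against 3 libraries cannot go below p = 0.1, so the counts of non-overlapping genes are given as descriptions.

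The called gene was Gm25394 (ENSMUSG00000087963.1), which GENCODE annotates as a small nucleolar RNA on the plus strand of chromosome 13, from 49684301 to 49684433 on GRCm38. Small nucleolar RNAs guide chemical modification of ribosomal and other RNAs. Gm25394 was listed at 0 in all 3 Cdx2-Apc libraries, against 127, 37.3 and 130 FPKM in the control libraries (limma, adjusted p = 0.0209). It reached the expression filter only through the control libraries. The 3 listed zeros have no spread of their own, which lowers the pooled spread behind this p. The groups did not overlap, but zeros were not particular to the Cdx2 driver, since Gm25394 was also listed at 0 in Lgr5-Apc replicates 3 and 4 and in Lgr5-Cdx2-Apc replicate 1. The call was lost without a filter on low values (adjusted p = 0.101), in a fit on all 12 libraries (adjusted p = 1), with the replicate number as a block (adjusted p = 0.16) and when any 1 Cdx2-Apc library or control replicate 3 was left out (adjusted p from 0.0661 to 0.129), and over all alternatives its adjusted p ran from 4.54e-05 to 1. A second small nucleolar RNA, Snora61 (ENSMUSG00000064949.1, chromosome 4, 132310240 to 132310369, plus strand), chosen after its values were seen, was listed at 0 in the 3 Cdx2-Apc libraries, against 209, 21.9 and 244 FPKM in the control libraries (limma, adjusted p = 0.186). It was listed at 0 in the other 6 libraries of the series too, and it reached the filter only through the control libraries. Both sequences, from the GENCODE M21 transcripts on GRCm38, are shown because they were listed at 0 in every Cdx2-Apc library and in no control library. They are 133 and 130 bases long, and the capitals mark an ACA triplet that ends 3 bases before the 3′ end, the position of the box of that name in this class of RNA.
Gm25394: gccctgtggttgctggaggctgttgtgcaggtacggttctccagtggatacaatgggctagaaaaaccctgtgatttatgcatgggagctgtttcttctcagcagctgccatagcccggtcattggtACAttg
Snora61: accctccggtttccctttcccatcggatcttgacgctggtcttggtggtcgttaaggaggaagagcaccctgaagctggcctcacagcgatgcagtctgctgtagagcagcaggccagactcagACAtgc

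Short RNAs mostly had lower values in Cdx2-Apc rectum. Short RNAs and ribosomal RNA loci took 34.6%, 18.3% and 29.3% of total FPKM in the Cdx2-Apc libraries, against 49.7%, 28.5% and 46.0% in the control libraries. The shares of the groups overlapped. Of 150 such genes tested, 26 (17.3%) lay below control without overlap and 1 above, with a median log2 difference of -0.83, while among the 14732 other autosomal genes 365 (2.48%) lay below and 946 above, with a median of 0.05. Rn7sk, the abundant nuclear RNA that restrains transcription elongation, was 45207, 18820 and 40114 FPKM in the Cdx2-Apc libraries and 76692, 46390 and 93428 FPKM in the control libraries. Snora73a, which takes part in processing of ribosomal RNA, was 454, 121 and 287 FPKM in the Cdx2-Apc libraries, against 947, 687 and 1635 FPKM in the control libraries. The groups did not overlap for either RNA, both chosen after their values were seen, and neither passed the test (adjusted p = 0.999 for both, limma). FPKM divides by transcript length, so short RNAs take large values, and the capture of short RNAs by the library method was not tested.

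**Figure D1:**
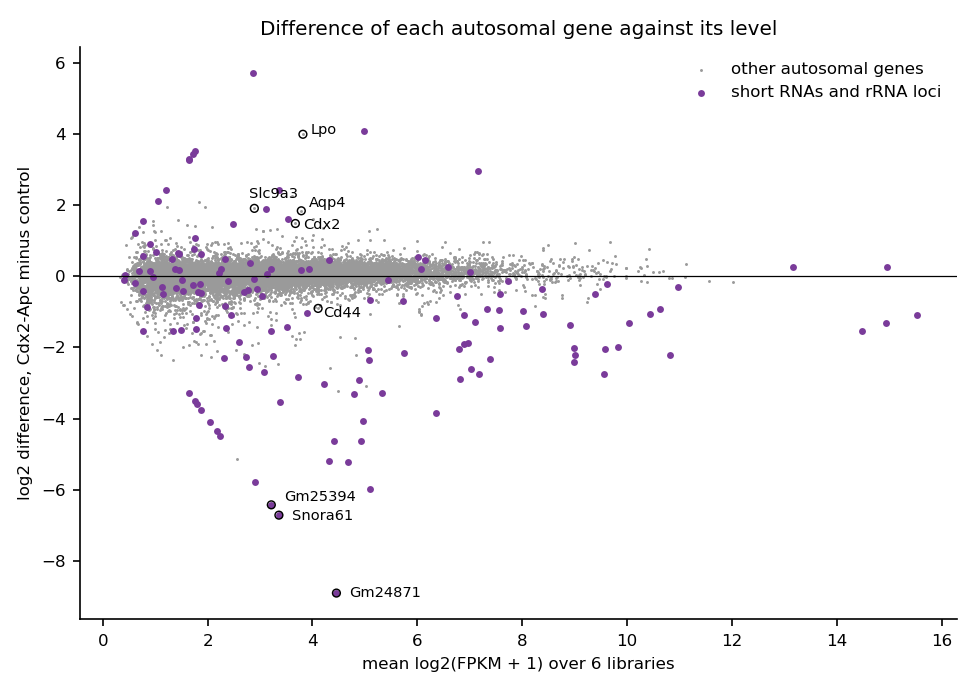
Each point is an autosomal gene, with its mean log2(FPKM + 1) over the 6 libraries on the x axis and its log2 difference, Cdx2-Apc minus control, on the y axis. Purple points are the 150 short RNAs and ribosomal RNA loci, which lie mostly below 0 (median -0.83), while the grey points of the other genes centre near 0 (median 0.05).

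Among longer autosomal genes the smallest p belonged to Lpo (ENSMUSG00000009356.12, chromosome 11, 87806428 to 87828289), lactoperoxidase, a secreted peroxidase of mucosal defence. It was 27.8, 103 and 58.9 FPKM in the Cdx2-Apc libraries, against 4.61, 1.68 and 1.92 FPKM in the control libraries, a log2 difference of 4.00 ± 0.50 (SE) that did not pass (limma, adjusted p = 0.186). The lowest Cdx2-Apc library was still several-fold above the highest control library. Slc9a3, the apical sodium-hydrogen exchanger NHE3 of absorptive epithelium, was 10.2, 19.6 and 12.1 FPKM in the Cdx2-Apc libraries and 1.90, 2.90 and 3.92 FPKM in the control libraries (log2 difference 1.92 ± 0.29, adjusted p = 0.432, limma). Slc20a1, a sodium-dependent phosphate transporter, was 200, 252 and 195 FPKM in the Cdx2-Apc libraries and 95.1, 117 and 113 FPKM in the control libraries (log2 difference 0.98 ± 0.17, adjusted p = 0.594, limma). In each of these transporters all 3 Cdx2-Apc libraries stood above every control library, which the choice of genes, given next, required.

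The 10 longer autosomal genes with the smallest p on each side were taken among those with a mean of 5 FPKM or more in the higher group and no overlap. The other 7 on the higher side had smaller differences than Lpo and Slc9a3. Eno3, the enolase best known from muscle, averaged 231 ± 26.9 FPKM in Cdx2-Apc rectum and 118 ± 13.7 FPKM in control rectum (SD, n = 3 each). Pdss1, a subunit of the enzyme that builds the side chain of coenzyme Q, averaged 18.1 ± 0.865 FPKM in Cdx2-Apc rectum and 10.9 ± 1.34 FPKM in control rectum. Cbr3, a carbonyl reductase, averaged 29.1 ± 3.37 FPKM in Cdx2-Apc rectum and 17.1 ± 2.30 FPKM in control rectum. The choice of genes required groups without overlap, and none of these 3 enzymes passed after adjustment. Slc25a34, of the mitochondrial carrier family, had a log2 difference of 1.06, Plk3, a stress-responsive polo-like kinase, 1.00, Tlcd2 0.93 and the ubiquitin protease Usp2 0.84. Adjusted p for these 7 genes ran from 0.594 to 0.999 (limma).

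On the lower side Rgs2 had the smallest p of the 10. Rgs2, which shortens G protein signalling and is strong in smooth muscle, was 7.07, 3.26 and 5.64 FPKM in the Cdx2-Apc libraries, against 14.7, 12.5 and 12 FPKM in the control libraries (log2 difference -1.20 ± 0.24, adjusted p = 0.975, limma). Edn1, the precursor of the vasoconstrictor endothelin-1, was 8.45, 8.51 and 13 FPKM in the Cdx2-Apc libraries and 15.3, 19.5 and 17.6 FPKM in the control libraries. Cav2, a caveolin, was 8.09, 5.74 and 6.70 FPKM in the Cdx2-Apc libraries and 14.2, 10.5 and 10.4 FPKM in the control libraries. For Rgs2 and Cav2 the lowest value was in Cdx2-Apc replicate 2, the library with the lowest smooth muscle mean; the part of muscle content in these differences was not tested.

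Gcnt1, which branches the sugar chains of mucins, was 13.2, 15.8 and 19.6 FPKM in the Cdx2-Apc libraries and 29.3, 27.6 and 27.4 FPKM in the control libraries. Id2, an inhibitor of helix-loop-helix factors and a target of BMP signalling, was 13.3, 10.9 and 12.2 FPKM in the Cdx2-Apc libraries and 30.0, 19.2 and 19.8 FPKM in the control libraries. Bmp3, a BMP family member that opposes other BMPs, was 11.3, 8.54 and 10.003 FPKM in the Cdx2-Apc libraries and 15.5, 14.7 and 19.3 FPKM in the control libraries. In these 3 genes no library of one group reached the range of the other, which the choice of genes required. Slc10a2, the apical bile acid transporter, averaged 2.02 ± 0.447 FPKM in Cdx2-Apc rectum and 5.91 ± 3.06 FPKM in control rectum, with the control spread set by replicate 3 at 9.44 FPKM. Fam3c, Eid1 and Crebrf had log2 differences of -0.57, -0.50 and -0.54, and adjusted p for the 10 genes was 0.975 or higher (limma).

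**Figure D2:**
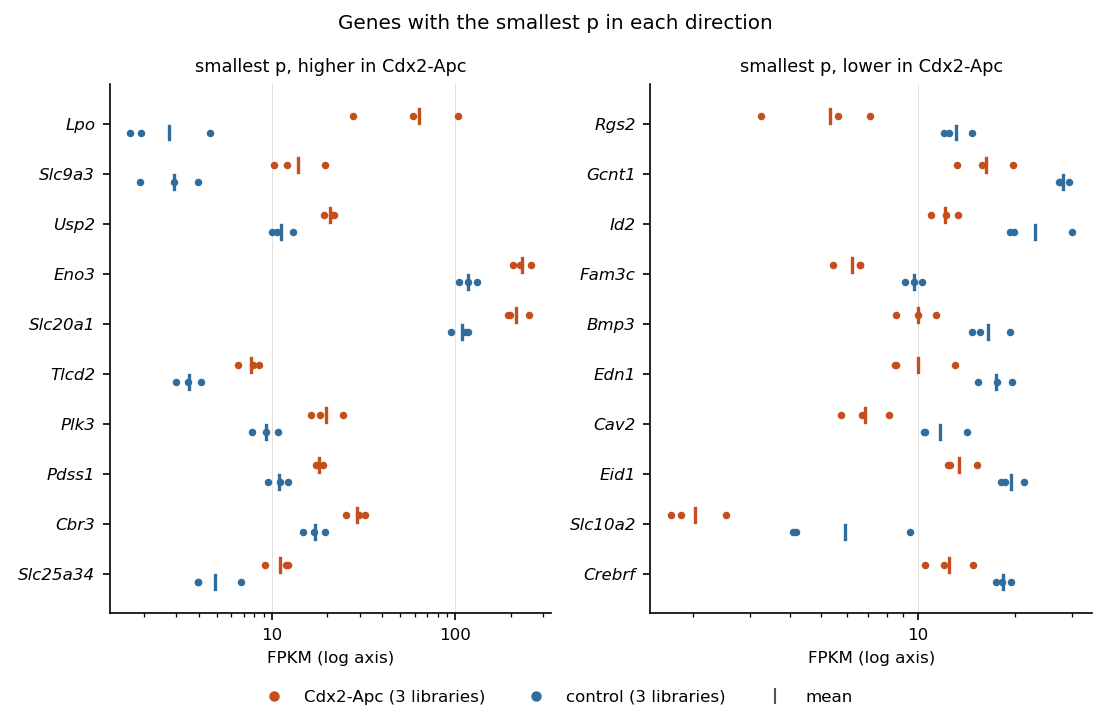
FPKM on a log axis for the 10 longer genes with the smallest p on the higher side (left) and on the lower side (right), with Cdx2-Apc libraries in orange above control libraries in blue, points for libraries and bars for group means. No gene has overlapping groups, which the choice of genes required, and Lpo has the widest gap, at 27.8 to 103 FPKM in Cdx2-Apc and 1.68 to 4.61 FPKM in control.

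Apc did not pass the test. It was 17.6, 15.3 and 17.2 FPKM in the Cdx2-Apc libraries, against 18.8, 15.9 and 16.5 FPKM in the control libraries, a log2 difference of -0.03 ± 0.12 (limma, adjusted p = 0.999). Apc (ENSMUSG00000005871.15) lies on chromosome 18 from 34220924 to 34322552. The value covers the whole gene, so it does not show whether the floxed exons were removed, and the extent of recombination cannot be read from it. The driver gene Cdx2 was 15.7, 30.4 and 17.7 FPKM in the Cdx2-Apc libraries, against 2.71, 4.19 and 22.0 FPKM in the control libraries (log2 difference 1.49 ± 0.66, adjusted p = 0.999, limma). Control replicate 3 lay within the Cdx2-Apc range while the other 2 control libraries lay far below it. Reads from a Cdx2-based driver transgene and from the Cdx2 gene cannot be told apart in this value. In the Lgr5-Apc libraries, titled without the Cdx2 driver, Cdx2 was 0.836, 0.248, 0.858 and 150.8 FPKM. In the Lgr5-Cdx2-Apc libraries, titled with it, Cdx2 was 18.5 and 1.44 FPKM. The part of a transgene in these values was not tested.

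Wnt target genes, the group that Apc loss is known to switch on, stood close to control. Of 24 listed genes 19 reached the filter, 0 passed the test in either direction, and in 2 of them (10.5%) all Cdx2-Apc libraries lay above control, beside 6.36% of all genes, with 0 below. Their median log2 difference was 0.04, beside 0.05 over all genes, while their mean difference was -0.06. The mean log2(FPKM + 1) over the 19 genes was 3.10, 3.03 and 3.26 in the Cdx2-Apc libraries and 3.48, 2.92 and 3.16 in the control libraries, so the Cdx2-Apc libraries lay within the control range. Axin2, the feedback inhibitor used most often as a readout of the pathway, was 12.1, 12.7 and 12.3 FPKM in the Cdx2-Apc libraries, against 9.31, 6.98 and 10.8 FPKM in the control libraries (log2 difference 0.43 ± 0.17, adjusted p = 0.999, limma). Its groups did not overlap, and the Cdx2-Apc libraries were nearly equal. Tcf7, a TCF transcription factor, was 2.29, 2.36 and 1.95 FPKM in the Cdx2-Apc libraries and 1.63, 1.57 and 1.51 FPKM in the control libraries (log2 difference 0.32 ± 0.17, adjusted p = 0.999). Without control replicate 1, the library rich in squamous RNA, 4 target genes lay above and 1 below, beside 13% of all genes above and 5.56% below.

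The other readouts of the pathway overlapped between groups. Ephb2, a receptor that sorts cells along the crypt, was 14.1, 17.1 and 17.8 FPKM in the Cdx2-Apc libraries and 8.49, 11.7 and 15.9 FPKM in the control libraries. Ascl2, the transcription factor of crypt base stem cells, was 5.99, 7.45 and 5.51 FPKM in the Cdx2-Apc libraries and 2.94, 5.19 and 5.84 FPKM in the control libraries. For both, the highest control library reached into the Cdx2-Apc range. Nkd1, a feedback inhibitor, was 7.80, 2.87 and 3.08 FPKM in the Cdx2-Apc libraries and 5.52, 5.63 and 5.59 FPKM in the control libraries, so that the Cdx2-Apc libraries lay on both sides of control. Rnf43 and Znrf3, ligases that remove Wnt receptors, had log2 differences of 0.02 ± 0.16 and -0.11 ± 0.18. Myc, Ccnd1, Sox9 and Ephb3 had differences of -0.07, 0.16, 0.08 and 0.10. Cd44 was 10.03, 8.57 and 18.0 FPKM in the Cdx2-Apc libraries and 59.0, 12.1 and 15.6 FPKM in the control libraries, with its highest value in the control library rich in squamous RNA. Notum, Sp5, Lef1, Wif1 and Mmp7, further targets, were not tested, since they did not reach 1 FPKM in 2 libraries. Notum, a secreted enzyme that inactivates Wnt proteins, was 0.384, 0.243 and 0.266 FPKM in the Cdx2-Apc libraries and 1.37, 0.112 and 0.0792 FPKM in the control libraries.

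**Figure D3:**
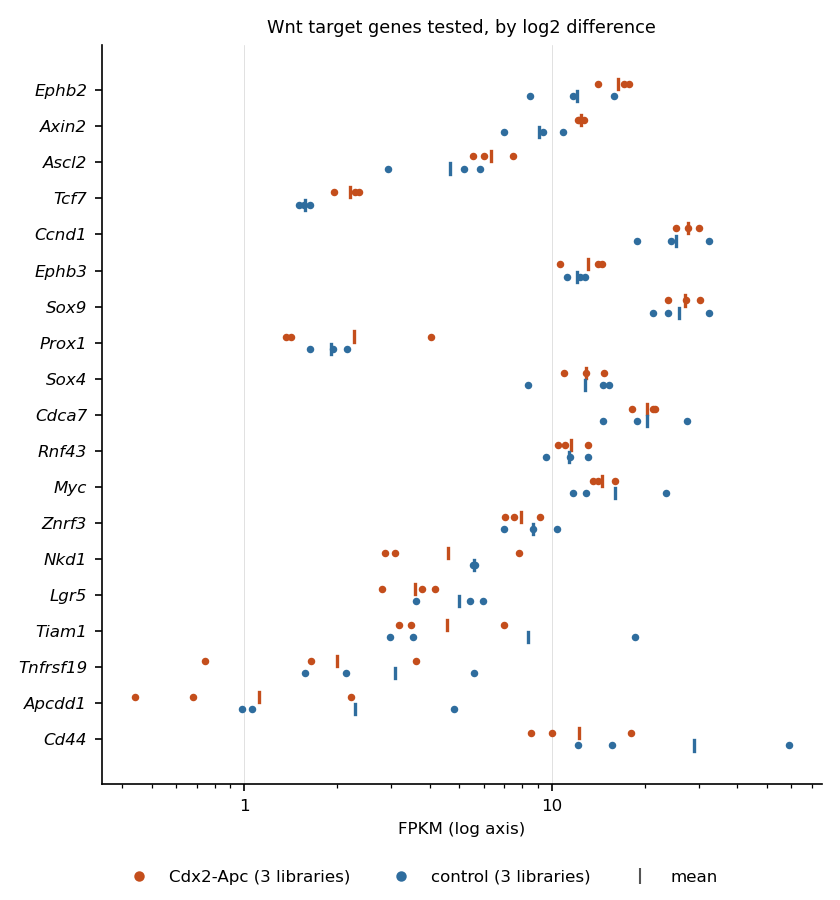
FPKM on a log axis for the 19 tested Wnt target genes, ordered by log2 difference, with Cdx2-Apc libraries in orange above control libraries in blue and bars for group means. Only Axin2 and Tcf7 have groups that do not overlap; Cd44, Apcdd1, Tnfrsf19 and Tiam1 carry 1 high control library, replicate 1.

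The machinery and ligands of the pathway were also near control. Of 21 tested genes of Wnt signal transduction, 1 lay above control without overlap (4.76%, beside 6.36% of all genes) and 0 below, with a median log2 difference of 0.06. The member above was the co-receptor Lrp6, at 33.5, 35.1 and 34.7 FPKM in the Cdx2-Apc libraries and 31.6, 31.2 and 31.5 FPKM in the control libraries, a log2 difference of 0.13. After median-of-ratios scaling 0 of these genes lay above and 1 below. Among 11 tested ligands and secreted inhibitors, 1 lay below (9.09%, beside 2.63% of all genes). Wnt5a, a ligand of the stroma that mainly signals without β-catenin, was 3.46, 1.67 and 2.80 FPKM in the Cdx2-Apc libraries and 5.63, 4.49 and 4.11 FPKM in the control libraries (log2 difference -0.68 ± 0.23, adjusted p = 0.999, limma).

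Crypt stem cell genes and the cell cycle gave the same picture of small differences. Lgr5, the stem cell receptor for R-spondins, was 2.81, 3.77 and 4.16 FPKM in the Cdx2-Apc libraries and 3.60, 5.399 and 5.95 FPKM in the control libraries (log2 difference -0.38 ± 0.21, adjusted p = 0.999, limma). The groups overlapped. Of 14 tested stem cell genes, 1 lay above (7.14%, beside 6.36% of all genes) and 2 below (14.3%, beside 2.63%), with a median of -0.05 and a mean of 0.06. The one above was Aqp4, a water channel on the basolateral side of epithelial cells, at 17.1, 39.8 and 23.3 FPKM in the Cdx2-Apc libraries and 3.17, 10.6 and 6.97 FPKM in the control libraries (log2 difference 1.85 ± 0.43, adjusted p = 0.999). Bmi1, a Polycomb protein, lay below at 8.69, 7.83 and 7.97 FPKM in the Cdx2-Apc libraries and 11.2, 9.59 and 10.9 FPKM in the control libraries. Of 26 cell cycle genes, 4 lay above (15.4%, beside 6.36% of all genes) and 0 below, with a median of 0.10. After median-of-ratios scaling 2 lay above (7.69%, beside 5.02%), and without Cdx2-Apc replicate 1 it was 10 (38.5%, beside 15%). These 4 were the replication helicase subunits Mcm2 and Mcm4, cyclin E1 (Ccne1) and thymidylate synthase (Tyms), with differences of 0.33, 0.20, 0.34 and 0.18. Mki67, the proliferation marker, was 27.7, 31.9 and 30.5 FPKM in the Cdx2-Apc libraries and 34.7, 29.7 and 27.5 FPKM in the control libraries, and the groups overlapped.

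Of 28 tested genes of absorptive colonocytes, 0 passed, 5 lay above control without overlap (17.9%, beside 6.36% of all genes) and 1 below (3.57%, beside 2.63%), with a median log2 difference of 0.22. Above were Slc9a3 and Slc20a1, given before, together with Atp12a, Car2 and Slc26a3. Atp12a, the colonic proton-potassium pump, was 169, 206 and 166 FPKM in the Cdx2-Apc libraries and 104, 129 and 112 FPKM in the control libraries (log2 difference 0.65 ± 0.16, adjusted p = 0.999, limma). Car2, a carbonic anhydrase that supplies protons and bicarbonate, was 809, 828 and 761 FPKM in the Cdx2-Apc libraries and 332, 516 and 622 FPKM in the control libraries. Slc26a3, the chloride-bicarbonate exchanger that works beside NHE3, had a difference of 0.38. Below was Scnn1g, a subunit of the epithelial sodium channel of the distal colon, at 2.58, 1.28 and 4.92 FPKM in the Cdx2-Apc libraries and 6.68, 7.72 and 6.42 FPKM in the control libraries (log2 difference -1.12 ± 0.33, adjusted p = 0.999). Its partner Scnn1b was 2.56, 2.75 and 4.88 FPKM in the Cdx2-Apc libraries and 6.84, 4.51 and 5.38 FPKM in the control libraries, with a small overlap. The third subunit, Scnn1a, had the opposite sign, at 32.1, 42.0 and 44.2 FPKM in the Cdx2-Apc libraries and 28.4, 27.4 and 34.6 FPKM in the control libraries (log2 difference 0.37 ± 0.17, adjusted p = 0.999, limma), so the subunits of this channel did not share a direction. The count above was 12 without Cdx2-Apc replicate 1 (42.9%, beside 15% of all genes) and 10 without control replicate 3 (35.7%, beside 18.7%), and 3 lay below without control replicate 1 (10.7%, beside 5.56%).

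Other epithelial lists had fewer members without overlap. Of 24 goblet cell genes 23 had a positive difference, beside 8886 of the 14882 genes tested. Of the 24, 1 lay above control without overlap (4.17%, below the 6.36% of all genes). Without Cdx2-Apc replicate 1 it was 8 (33.3%, beside 15% of all genes), and without control replicate 3 it was 9 (37.5%, beside 18.7%). That gene was Klk1, a kallikrein, at 628, 814 and 693 FPKM in the Cdx2-Apc libraries and 156, 590 and 541 FPKM in the control libraries. Of 18 intestinal transcription factors, Foxa2 and Nr5a2 lay above (11.1%, beside 6.36% of all genes), and the median difference was 0.24. After median-of-ratios scaling 0 lay above and 1 below, and without control replicate 3 it was 11 above (61.1%, beside 18.7% of all genes). Foxa2 was 14.8, 18.3 and 14.5 FPKM in the Cdx2-Apc libraries and 5.95, 10.6 and 14 FPKM in the control libraries, so control replicate 3 came close to the Cdx2-Apc range. All 12 columnar epithelium genes had a positive difference, with a median of 0.25, and 1, Krt19, lay above without overlap (8.33%, beside 6.36% of all genes). Without control replicate 3 it was 7 (58.3%, beside 18.7%). The 9 tested tuft cell genes and 14 tested enteroendocrine genes had 0 without overlap. The part of the columnar share, whose means per library are given above, in these differences was not tested.

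Cholesterol synthesis had the largest share of members lying above control among the lists with over 10 tested genes. Of 17 genes, 6 lay above (35.3%, beside 6.36% of all genes) and 0 below, 16 had a positive difference, the median was 0.35, and 0 passed the test. Mvd, the decarboxylase that closes the mevalonate pathway, was 14.3, 15.5 and 17.4 FPKM in the Cdx2-Apc libraries and 8.93, 7.12 and 11.3 FPKM in the control libraries (log2 difference 0.74 ± 0.18, adjusted p = 0.999, limma). Sqle, squalene epoxidase, a control point of the later pathway, was 39.1, 52.3 and 55.3 FPKM in the Cdx2-Apc libraries and 31.3, 30.0 and 32.2 FPKM in the control libraries. Both enzymes were separated in every library. Hmgcs1, which makes the precursor of mevalonate, was 98.2, 139 and 141 FPKM in the Cdx2-Apc libraries and 97.4, 81.2 and 86.2 FPKM in the control libraries, where the gap between Cdx2-Apc replicate 1 and control replicate 1 was narrow. Fdft1, Cyp51 and Fdps completed the 6, with differences of 0.49, 0.40 and 0.31. The regulator Srebf2 overlapped between groups. The list's mean log2(FPKM + 1) was 4.79, 5.08 and 5.28 in the Cdx2-Apc libraries, against 4.75, 4.52 and 4.85 in the control libraries. On that mean control replicate 3 exceeded Cdx2-Apc replicate 1, so the groups overlapped. The count was 5 after median-of-ratios scaling and 7 without control replicate 1, beside 5.02% and 13% of all genes above in those settings.

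Sterol regulatory elements and CCAAT boxes are the letters most often described in promoters of this pathway. Of 11 tested members with a RefSeq promoter (250 bases before to 50 after the gene start, GRCm38.p6), 1 held the letters TCACNCCAC on either strand, beside 1.24% of all 32851 promoters, and 11 held CCAAT on either strand, beside 37.4% of all promoters. A member counts where any of its promoters matched, while the share of all promoters is taken per promoter, so the 2 shares are unlike measures. The windows of 60 bases below are shown for the 3 members above control with a RefSeq promoter, with the matched letters in capitals. A match describes the letters only.
Hmgcs1, chr13:119690188-119690247, plus strand, TCACNCCAC: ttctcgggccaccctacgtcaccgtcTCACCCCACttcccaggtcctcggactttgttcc
Mvd, chr8:122443451-122443510, minus strand, CCAAT read as its complement: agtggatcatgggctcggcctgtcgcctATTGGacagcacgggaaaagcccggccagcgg
Cyp51, chr5:4104695-4104754, minus strand, CCAAT: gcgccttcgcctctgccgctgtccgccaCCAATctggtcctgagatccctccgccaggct

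Of 31 tested interferon response genes, 7 lay above control without overlap (22.6%, beside 6.36% of all genes) and 0 below, 30 had a positive difference, the median was 0.31, and 0 passed the test. Psmb9, a subunit of the immunoproteasome, was 8.56, 8.498 and 8.85 FPKM in the Cdx2-Apc libraries and 3.03, 5.03 and 6.96 FPKM in the control libraries (log2 difference 0.74 ± 0.25, adjusted p = 0.999, limma). Xaf1, an interferon-induced pro-apoptotic protein, was 4.00, 3.35 and 3.28 FPKM in the Cdx2-Apc libraries and 1.72, 2.60 and 1.73 FPKM in the control libraries. Ifit1, which binds foreign RNA, was 6.91, 3.20 and 2.14 FPKM in the Cdx2-Apc libraries and 0.686, 2.06 and 2.09 FPKM in the control libraries. For Ifit1 the third Cdx2-Apc library and the third control library nearly met, and replicate 1 of each group gave the extremes. The antiviral enzyme Rsad2, with Oasl2, Oas1a and Irgm1, made up the rest. The list's mean log2(FPKM + 1) was 2.92, 2.49 and 2.59 in the Cdx2-Apc libraries, against 2.15, 2.36 and 2.54 in the control libraries. On that mean control replicate 3 exceeded Cdx2-Apc replicate 2, so the groups overlapped. The count was 5 after median-of-ratios scaling (16.1%, beside 5.02% of all genes), 8 without control replicate 1 (25.8%, beside 13%) and 15 without control replicate 3 (48.4%, beside 18.7%). Among immune cells, the B and plasma cell genes averaged 3.42, 2.40 and 2.10 in mean log2(FPKM + 1) in the Cdx2-Apc libraries and 1.41, 4.01 and 3.28 in the control libraries, and the 14 macrophage and dendritic cell genes 2.43, 1.91 and 2.18 in the Cdx2-Apc libraries and 1.26, 2.64 and 2.19 in the control libraries. Control replicate 1 was thus the lowest library for both cell classes and for the interferon list, at 2.15, and the part of immune cell content was not tested.

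The interferon-stimulated response element holds a repeat of GAAA. The letters GAAANNGAAA, on either strand, stood in the promoter windows of 14 of 26 tested members with a RefSeq promoter (53.8%), beside 3.44% of all promoters, and in 4 of the 7 that lay above control. Here too members are counted per gene and the background per promoter. Those 4 windows of 60 bases (GRCm38.p6) are shown with all matches in capitals, overlapping ones joined, which read as TTTC repeats where they lie on the other strand.
Ifit1, chr19:34640760-34640819, plus strand: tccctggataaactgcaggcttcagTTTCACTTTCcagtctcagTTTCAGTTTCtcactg
Irgm1, chr11:48871416-48871475, minus strand: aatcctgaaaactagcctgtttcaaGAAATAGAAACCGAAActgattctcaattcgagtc
Oas1a, chr5:120907511-120907570, minus strand: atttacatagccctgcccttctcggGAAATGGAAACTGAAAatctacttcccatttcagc
Rsad2, chr12:26456538-26456597, minus strand: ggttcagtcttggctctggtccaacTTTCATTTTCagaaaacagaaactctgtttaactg

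**Figure D4:**
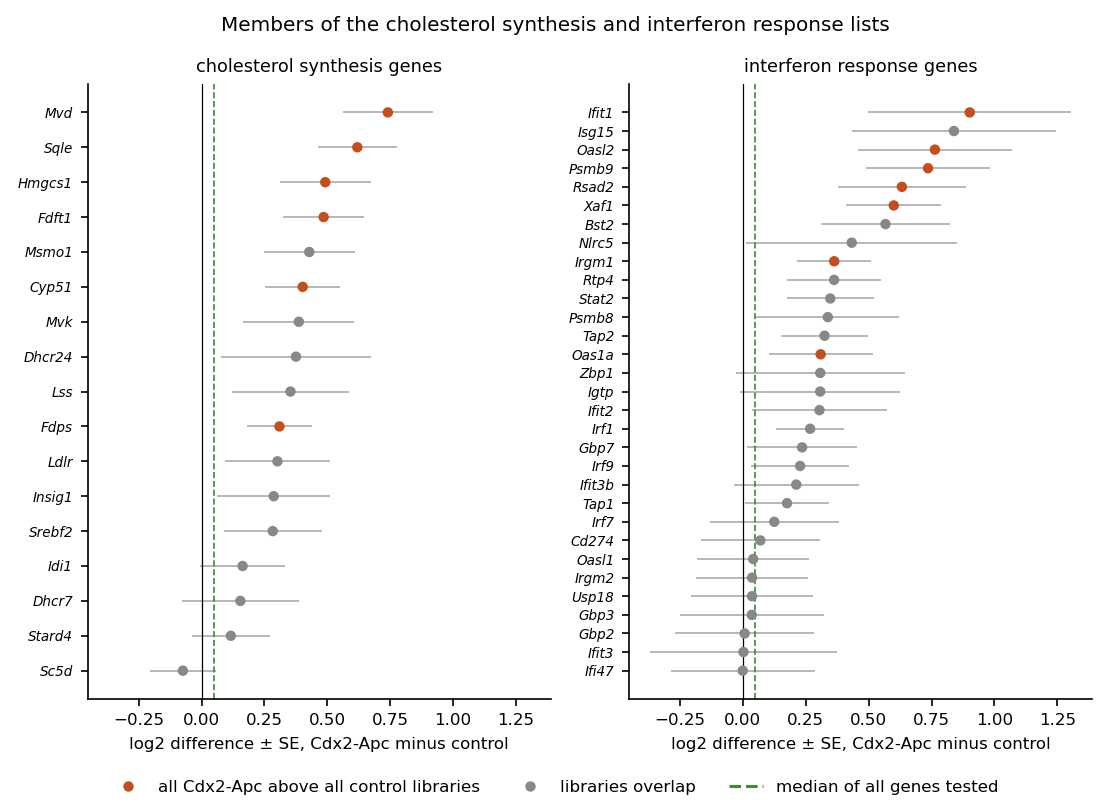
Log2 difference, Cdx2-Apc minus control, with its SE for each tested member of the cholesterol synthesis list (left, 17 genes) and of the interferon response list (right, 31 genes). Orange points mark the 6 and 7 members whose Cdx2-Apc libraries all lie above control, and the dashed green line marks the median of all genes tested, 0.05.

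Mucosal defence and metabolism of fatty acids held further members above control. Of 16 antimicrobial and mucosal defence genes, 4 lay above (25.0%) and 0 below, with a median of 0.37; here and in the next 3 lists the share of all genes above is 6.36%. Pla2g2a, a secreted phospholipase known in mice as a modifier of Apc-driven polyp number and annotated as a polymorphic pseudogene, was 2.29, 3.14 and 1.51 FPKM in the Cdx2-Apc libraries and 0.526, 0.669 and 0.600 FPKM in the control libraries (log2 difference 1.02 ± 0.25, adjusted p = 0.999, limma). Pla2g2a is among the 4 but reached the expression filter only through the Cdx2-Apc libraries. Strain is not given in the labels, and its part in this difference was not tested. Mptx1, a mucosal pentraxin, was 893, 1533 and 1099 FPKM in the Cdx2-Apc libraries and 334, 751 and 789 FPKM in the control libraries. Tgm3, a transglutaminase, and Saa3, a serum amyloid protein, were the others, and Saa3 ranged from 1.62 to 32.4 FPKM among the Cdx2-Apc libraries. Of 20 genes of fatty acid oxidation and ketogenesis, 5 lay above (25.0%), among them Cpt1a and Cpt2, the carnitine transferases that carry fatty acids into mitochondria. Cpt2 was 29.9, 35.8 and 28.9 FPKM in the Cdx2-Apc libraries and 18.6, 20.9 and 25.9 FPKM in the control libraries, and Cpt1a had a difference of 0.40. Of 43 genes of oxidative phosphorylation, 5 lay above (11.6%) and 41 had a positive difference, with a median of 0.27. After median-of-ratios scaling 2 of them lay above (4.65%, beside 5.02% of all genes) and 1 below, and without control replicate 3 it was 33 above (76.7%, beside 18.7%). Of 15 genes of the unfolded protein response, 4 lay above (26.7%), including the chaperone Hspa5 and the transcription factor Xbp1, with differences of 0.28 and 0.27. That count was 2 after median-of-ratios scaling (13.3%, beside 5.02% of all genes) and 8 without Cdx2-Apc replicate 1 (53.3%, beside 15%). Leaving out Cdx2-Apc replicate 1 also gave 11 fatty acid oxidation genes above (55%, beside 15% of all genes). Leaving out control replicate 3 gave 10 of these (50%) and 9 mucosal defence genes (56.2%), beside 18.7% of all genes. No member of these lists passed the test. In mean log2(FPKM + 1), mucosal defence genes averaged 4.88, 5.23 and 5.6 in the Cdx2-Apc and 4.68, 4.68 and 5.27 in the control libraries. Fatty acid oxidation genes averaged 4.79, 4.84 and 4.78 in the Cdx2-Apc and 4.54, 4.21 and 4.83 in the control libraries. For both of these lists the group means per library overlapped.

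BMP and Hedgehog genes leaned the other way. Of 16 tested, 14 had a negative difference, with a median of -0.12, and 1, Id2, lay below without overlap (6.25%, beside 2.63% of all genes). Without control replicate 1, 5 lay below (31.2%), beside 5.56% of all genes. Without control replicate 3, 2 lay above (12.5%, beside 18.7% of all genes) and 1 below (6.25%, beside 4.86%). Of 13 Notch genes, 1 lay below (7.69%, beside 2.63% of all genes): the target Hes1, at 47.2, 49.9 and 55.7 FPKM in the Cdx2-Apc libraries and 68.7, 57.5 and 63.4 FPKM in the control libraries. After median-of-ratios scaling 3 Notch genes lay below (23.1%, beside 3.92% of all genes) and 1 above, and without Cdx2-Apc replicate 3 it was 4 below (30.8%, beside 6.48%). Of 12 posterior Hox genes, which mark the hindgut end of the body axis, 1 lay below (8.33%, beside 2.63% of all genes). That gene was Hoxd13, at 52.6, 48.5 and 61.4 FPKM in the Cdx2-Apc libraries and 76.2, 62.1 and 70.1 FPKM in the control libraries. Hoxb13, of the same paralogous group, had the opposite sign, with a log2 difference of 0.46 ± 0.20. Neither passed the test (adjusted p = 0.999 for both, limma). Squamous genes had the most negative median of all lists, -1.60 over 23 genes, with 0 without overlap, since Cdx2-Apc replicate 3 exceeded 2 control libraries. All 23 had a negative difference. Without Cdx2-Apc replicate 3, 16 of them lay below (69.6%, beside 6.48% of all genes). All 22 smooth muscle genes had a negative difference, and 1, Cald1, caldesmon, lay below without overlap (4.55%, beside 2.63% of all genes). Without Cdx2-Apc replicate 1, whose smooth muscle mean exceeded that of every control library, all 22 lay below, beside 8.22% of all genes.

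**Figure D5:**
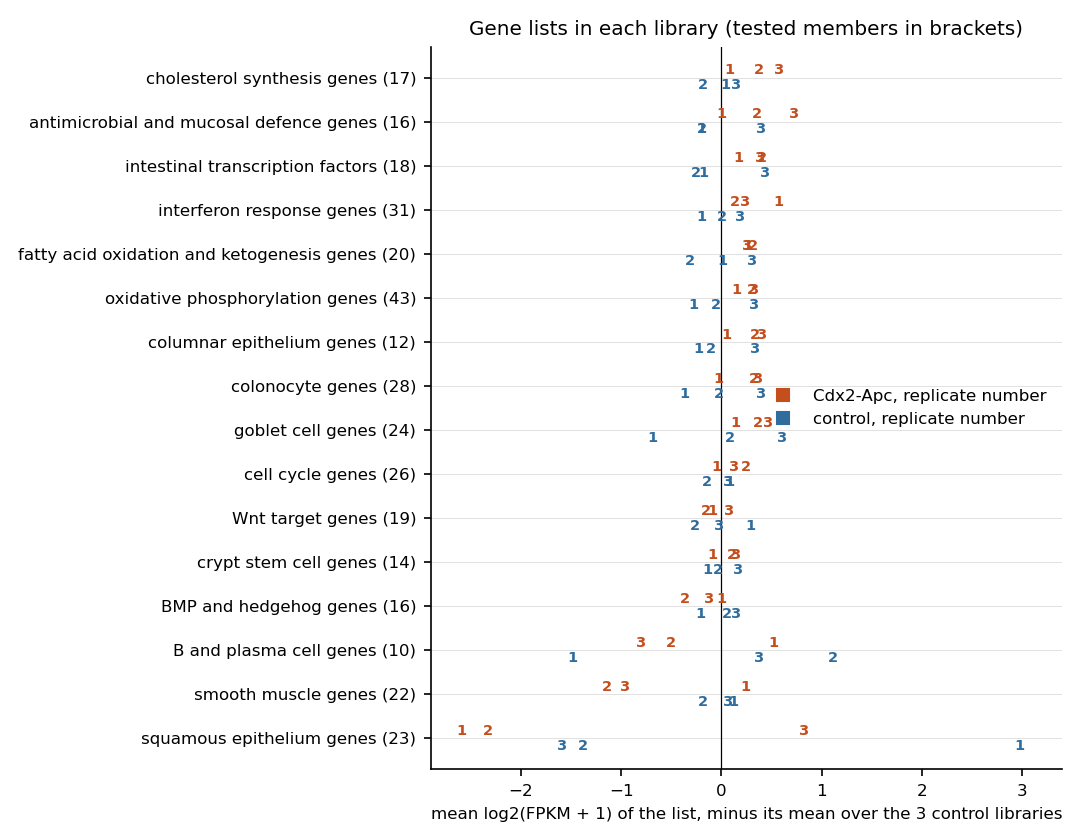
Mean log2(FPKM + 1) of the tested members of 16 gene lists in each library, minus the list's mean over the 3 control libraries; orange digits are Cdx2-Apc replicates and blue digits below them are control replicates. Squamous epithelium spans the widest range, from Cdx2-Apc replicate 1 to control replicate 1, while Wnt target genes of both groups lie together near 0.

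The other Apc groups are set beside these values without a test, since every comparison would share the control libraries. Lpo was 0.703, 0.705, 1.85 and 19.6 FPKM in the Lgr5-Apc libraries and 1.35 and 2.44 FPKM in the Lgr5-Cdx2-Apc libraries, so all 3 Cdx2-Apc libraries were above the rest of the series. Slc20a1 was likewise highest in the Cdx2-Apc libraries, with 43.5, 18.1, 36.0 and 38.7 FPKM in the Lgr5-Apc libraries and 47.7 and 14.5 FPKM in the Lgr5-Cdx2-Apc libraries. Slc9a3 had its highest value, 38.8 FPKM, in Lgr5-Apc replicate 4, while Lgr5-Apc replicates 1 to 3 were at 0.359, 0.285 and 0.714 FPKM, below every control library. In the Lgr5-Cdx2-Apc libraries it was 10.2 and 1.43 FPKM. Axin2 was 6.87, 9.37, 5.86 and 11.7 FPKM in the Lgr5-Apc libraries and 20.5 and 14.6 FPKM in the Lgr5-Cdx2-Apc libraries, where both values exceeded the Cdx2-Apc libraries. Xist was between 61.1 and 266 FPKM in all 6 of these libraries, as in control rectum and unlike the Cdx2-Apc libraries.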

How the data were processed

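RNA was extracted with RNeasy Plus and DNase and made into NEBNext Ultra II Directional libraries, per the labels' protocols. STAR, Cufflinks, Cuffdiff and the mm10 genome are named in the submitters' processing notes, with no versions. The deposited values are FPKM, made by the authors, 1 per gene and library; any rescaling between libraries is not given in the sources used here. Read depth is unknown, since low values showed no steps of single reads, so no counting interval or floor is given and a 0 is only a listed 0.

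Of 27831 lines, 25 with names turned into dates were kept unnamed, and 44 repeated symbols were reduced to their line of highest mean, leaving 27785 genes. Positions came from GENCODE M21 on GRCm38 (95.9% of symbols) and RefSeq. Genes with 1 FPKM or more in at least 2 of the 6 libraries (15533, of which 14882 autosomal) were fitted as log2(FPKM + 1) with limma 3.58.1 in R 4.3.3 (empirical Bayes with trend, two-sided). P-values were adjusted over all 15533 genes by Benjamini-Hochberg, with sex-linked genes kept in. Differences on this scale understate the fold of low genes. The procedure was tested on simulated data. At the filter, 839 genes with 1 FPKM in exactly 2 libraries (median mean 0.918 FPKM) lay just inside and 1264 with 1 FPKM in exactly 1 library (0.601 FPKM) just outside.

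The members and the gene lists were chosen with earlier results of these data known. Some list genes are not reported here and were left out of the list counts. Named genes were called genes, then the 10 with the smallest p in each direction among genes with a mean of 5 FPKM or more in the higher group and no overlap, from each list described the 3 members of smallest p, and a fixed set of Wnt, driver and sex-linked genes; unnamed models, short RNAs and antibody segments were skipped. Further members were named after their values were seen, for lying outside the range of the other group or for a role in their list. Nothing in the labels says whether samples came from separate animals, so p-values cover only the spread among these libraries, which may be technical. Alternatives tried were another pseudocount, other filters and scalings, a fit on 12 libraries, library weights, robust moderation, a replicate block, a squamous covariate and leaving out each library. Adjustment over autosomal genes alone and the list counts under other scaling and without each library were added after seeing the data.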

Additional observations from a re-analysis of the deposited data

Results flagged for a closer look

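In the Lgr5-Apc group of 4 libraries, the only group large enough for the check, replicate 4 lay far from the other 3 for 4 of the 10 genes whose levels across groups were checked (Dixon's ratio of gap to range above its critical value; chance marks about 1 in 20). Cdx2 was 150.8 FPKM in that library, Slc9a3 38.8 FPKM, Lpo 19.6 FPKM and Lgr5 4.72 FPKM, each the highest of its group. The Cdx2-Apc and control groups, with 3 libraries each, are too small for this check.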

How the results depend on the processing

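The number of genes called lower was 3 with a pseudocount of 0.1 FPKM or library weights and 0 without a filter, with short RNAs removed or with the replicate block; leaving out 1 library gave 0 to 5. The highest count, 5, came without control replicate 1 and 4 without control replicate 2, while it was 0 without Cdx2-Apc replicate 2. The number called higher was 1, Lpo, with library weights (adjusted p = 0.0368, limma), 0 to 1 with 1 library left out (Gm27762 without Cdx2-Apc replicate 2), and 0 under the other alternatives run. In the fit on 12 libraries the 1 gene called lower was Snora61, not Gm25394. Apart from the construction named below, the cause of these shifts was not tested. Genes below control without overlap numbered 611 without a filter and 235 at a mean of 5 FPKM, and 598 to 1224 with 1 library left out; genes above numbered 1187 to 2784 with 1 library left out. With 5 libraries fewer values have to separate, so these counts rise by construction. The cholesterol synthesis count above control was 6 to 10, the interferon response count 7 to 15 and the Wnt target count 2 to 5 with 1 library left out. The share of all genes above ran from 7.98% to 18.7% in those settings. The highest Wnt target count, 5 (26.3%), came without control replicate 3, beside 18.7% of all genes. The scaling that removes short RNAs drops the called gene from the table. Same-numbered libraries had deviations correlated at -0.0126, 0.280 and -0.221, and unlike-numbered ones between -0.324 and 0.311. With 3 libraries per group and tissue content that varies within groups, these values cannot decide whether the numbers pair the samples. With the block Gm25394 had an adjusted p of 0.16 (limma). No gene named by the selection rule above with an unadjusted p below 0.05 changed sign in any alternative run. Further genes named after their values were seen, such as Car2 and Scnn1g, were not followed through the alternatives. Depth is unknown, so what it limits cannot be stated.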

Other observations

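Outside the gene lists, further genes of epithelial transport and secretion lay above control in all 3 Cdx2-Apc libraries, all chosen after their values were seen and none past the test (limma, adjusted p = 0.999 for each). Dpep1, a dipeptidase of the brush border, was 19.7, 38.01 and 26.7 FPKM in the Cdx2-Apc libraries and 2.87, 11.4 and 14.8 FPKM in the control libraries. Slc30a10, a manganese exporter, was 9.66, 16.4 and 10.6 FPKM in the Cdx2-Apc libraries and 2.07, 4.35 and 8.26 FPKM in the control libraries. Slc13a2, a carrier of citrate and succinate, was 21.8, 28.4 and 20.6 FPKM in the Cdx2-Apc libraries and 4.99, 11.5 and 15.8 FPKM in the control libraries. For all 3 genes the lowest value was in control replicate 1, which also had the lowest colonocyte mean, 5.95 in log2(FPKM + 1), among the 6 libraries.

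The clock gene Per2 was 19.3, 9.85 and 13.8 FPKM in the Cdx2-Apc libraries and 8.53, 7.19 and 8.47 FPKM in the control libraries (log2 difference 0.71 ± 0.23, adjusted p = 0.999, limma). Of 18 circadian genes tested, 3 lay above control without overlap (16.7%, beside 6.36% of all genes) and 0 below. Their median log2 difference was 0.06, close to the 0.05 over all genes. After median-of-ratios scaling 2 lay above (11.1%, beside 5.02% of all genes) and 1 below (5.56%, beside 3.92%). The time of day of collection is not given in the labels.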
